A study of Mus musculus with 7 samples.

Results

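The intrinsic apoptosis pathway was examined through 9 genes in fetal muscle fibers, comprising 8 members of the *Bcl2* family (*Bax*, *Bak1*, *Bcl2*, *Bcl2l1*, *Mcl1*, *Bcl2l11*, *Bbc3* and *Bid*) and the initiator caspase gene *Casp9*. These 9 genes were taken by symbol from a table of 31531 genes, and all 9 were found. RNA was sequenced from 4 WT and 3 dyW fetuses at E17.5, with 1 library per fetus. The dyW fetuses were homozygous for a germline disruption of *Lama2*, which encodes the laminin α2 chain, and the WT fetuses came from the same kind of crosses between heterozygous C57BL/6 mice. The dyW mouse is a model of LAMA2-congenital muscular dystrophy. Because the disruption is present in every cell and not only in muscle, the groups also differ in any other cell that stays on the fibers. Sex and litter are not given for these libraries. Fibers were released from epaxial muscle, which lies along the back, with dispase and collagenase and were retained on a strainer. They were lysed whole, and full-length cDNA was amplified without molecular identifiers, so the limits given for counts cover counting error only.

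The *Bcl2* family controls whether the outer mitochondrial membrane stays intact. *Bcl2*, *Bcl2l1* (BCL-XL) and *Mcl1* encode anti-apoptotic proteins that hold the pore-forming effectors BAX and BAK in check, and the BH3-only proteins encoded by *Bcl2l11* (BIM), *Bbc3* (PUMA) and *Bid* relieve that block or activate the effectors. Once the membrane opens, cytochrome c binds APAF1 and the resulting apoptosome activates caspase-9, which starts the caspase cascade. Much of this control lies in protein binding, cleavage and turnover, which RNA levels do not measure.

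The sequences that define the members are the BH3 core, the helix through which the family members bind each other, and the catalytic stretch of caspase-9. They were copied from the coding strand of the canonical GENCODE transcripts on GRCm39, each with 1 match in its protein. Capitals mark the codons of the conserved glycine and aspartate of the BH3 core (alanine and aspartate in *Bbc3*) and, in *Casp9*, the glutamine, alanine and active-site cysteine codons. The *Casp9* stretch is split between exons 6 and 7, so its coordinates include an intron.
*Mcl1*, chr3:95566732-95566776, plus strand, exon 1: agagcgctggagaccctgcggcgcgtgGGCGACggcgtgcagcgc
*Bcl2*, chr1:106640302-106640346, minus strand, exon 1: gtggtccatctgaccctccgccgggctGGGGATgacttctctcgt
*Bcl2l1*, chr2:152671614-152671658, minus strand, exon 2: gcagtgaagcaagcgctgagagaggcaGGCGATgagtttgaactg
*Bax*, chr7:45115418-45115462, minus strand, exon 3: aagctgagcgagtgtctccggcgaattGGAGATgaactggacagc
*Bak1*, chr17:27241502-27241546, minus strand, exon 4: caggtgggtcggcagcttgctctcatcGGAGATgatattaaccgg
*Bcl2l11*, chr2:127989055-127989099, plus strand, exon 3: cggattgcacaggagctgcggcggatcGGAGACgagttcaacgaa
*Bbc3*, chr7:16047683-16047727, plus strand, exon 3: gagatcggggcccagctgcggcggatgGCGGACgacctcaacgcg
*Bid*, chr6:120874247-120874291, minus strand, exon 4: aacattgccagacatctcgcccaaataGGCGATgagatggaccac
*Casp9*, chr4:141534549-141538857, plus strand, exons 6 and 7: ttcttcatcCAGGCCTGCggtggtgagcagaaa

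The libraries differed in depth and in the cells they held. Reads counted on genes ranged from 470804 to 2220813 in the WT libraries and from 3663905 to 18297106 in the dyW libraries, so 1 read was worth 2.05 to 5.33 normalized counts in WT and 0.0974 to 0.488 in dyW. A normalized count is the number of reads on a gene divided by 1 size factor per library. *Lama2*, the targeted gene, was at 90.6 to 111 normalized counts in WT and at 4.29 and 6.07 in dyW1 and dyW2, but at 139.7 in the third library of that group, which is therefore called the library labelled dyW3. The 12 myofiber markers summed to 3081 to 84866 normalized counts in WT and to 8796 and 6918 in dyW2 and the library labelled dyW3. In dyW1 they summed to 65.5, and 6 of the 12, among them *Des* and *Ckm*, were at 0. WT1 held 422884 normalized counts of 5 cartilage markers against at most 7635 in any other library. The 7 erythroid markers summed to 90.6 normalized counts in WT1 and 14.8 in dyW1, against 28845 to 291249 in the other 5 libraries. The 8 fibroblast markers summed to 4329 to 14991 in WT and to 22084 to 33416 in dyW. The part of these differences in the results on the 9 genes was not tested beyond fits without single libraries and without WT1 and dyW1 together. Fewer cells of a type cannot be told apart from less RNA per cell in such lysates.

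Groups were compared with limma on log2(normalized count + 1) over the 25791 genes whose mean over the 7 libraries reached 5 normalized counts. A gene was called at a Benjamini-Hochberg adjusted P-value under 0.01 and an absolute log2 fold change over 1.5. Fold changes are given as dyW minus WT, and on this scale they understate the change of low genes. Of the 9 genes, 8 were tested, and *Bak1* was below the minimum. *Casp9*, as 1 of the 8, was called lower in dyW, beside 18.7% of all tested genes. None was called higher, beside 0.0659% of all tested genes. At an adjusted P-value under 0.05 with the same fold change, *Casp9* and *Bid* were lower, beside 29.6% of all tested genes, and still 0 were higher, beside 1.004% of all tested genes. In all, 3 of the 8 (*Casp9*, *Bid* and *Mcl1*) had an unadjusted P-value under 0.05 in limma, beside 44.3% of all tested genes. The median log2 fold change of the 8 genes was −0.06, whereas the median over the 25791 genes was −1.99. Among the 6111 genes with a mean of at least 50, the latter was 0.20, which is above the log2 fold changes of *Bcl2* and *Bcl2l11* and below that of *Mcl1*, the 3 members at that level. The median over the 25791 genes moved to −1.19 when the libraries were set to 1 common total, to −1.80 under TMM scaling and to 0.06 under quantile normalization. The median of the 8 genes was then 1.02, 0.20 and 0.99, in the same order. The direction of a small change therefore depends on the scaling for several of these genes, as the plot of fold changes under 6 scalings or models shows.

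**Figure D1:**
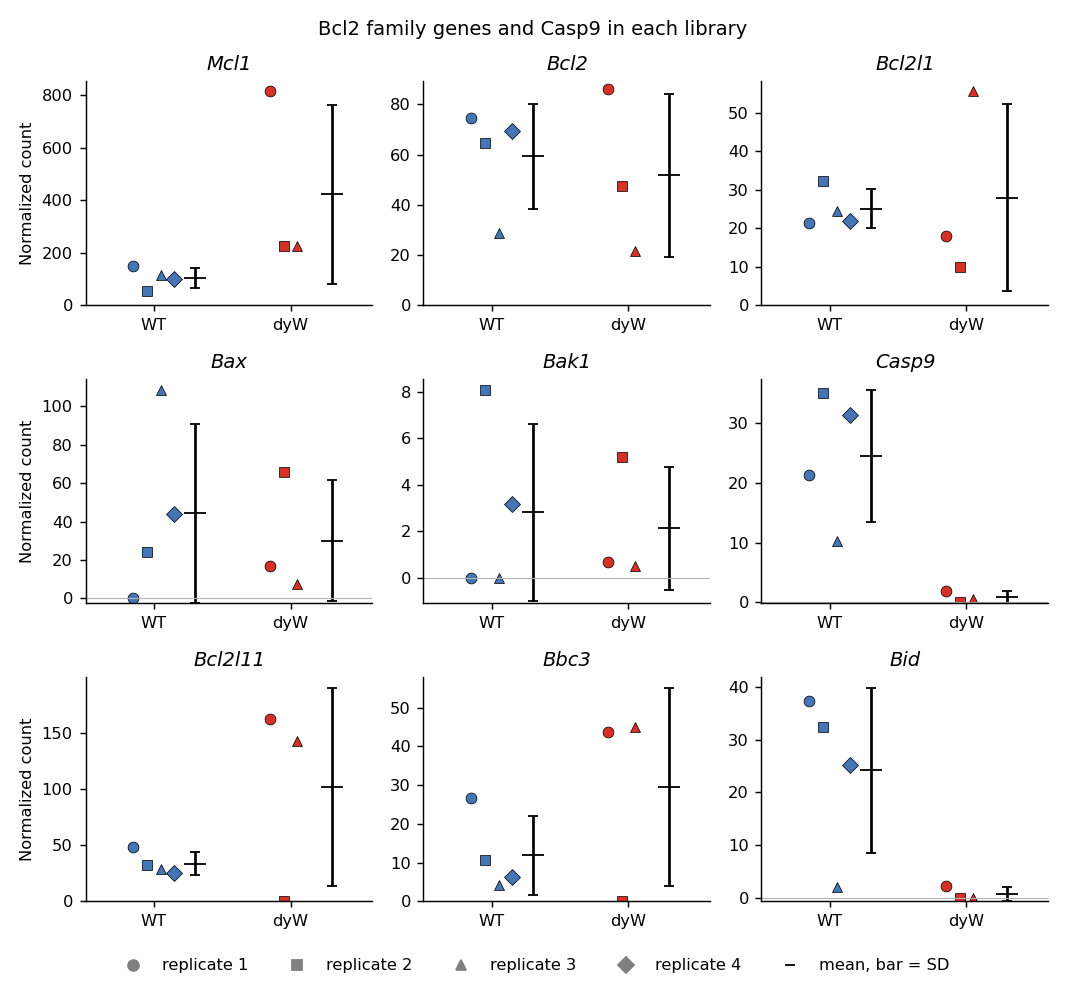
Normalized count (linear axes, 1 per panel) of the 8 *Bcl2* family genes and *Casp9* in 4 WT (blue) and 3 dyW (red) libraries, with symbols for the replicate number and, to the right of the points, the group mean with its SD. The 3 dyW points lie above every WT point for *Mcl1* and below every WT point for *Casp9*, and the groups overlap for the other 7 genes.

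*Mcl1*, whose short-lived protein guards against BAK activation, had the highest group mean of the 9 genes per exon length in both groups, except that without WT1, which has 0 reads of *Bax*, the WT mean of *Bax* (31.8 normalized counts per kb) was above that of *Mcl1* (26.0). WT1 to WT4 held 149, 56.6, 115 and 100.7 normalized counts of *Mcl1*. The gene stood at 815 in dyW1, 225 in dyW2 and 226 in the library labelled dyW3. Every dyW library was thus above every WT library, a separation in this direction that 3.28% of all tested genes showed. The WT mean was 105 ± 38.4 (SD, n = 4), the dyW mean was 4.01-fold higher at 422 ± 340 (SD, n = 3), and the WT mean rests on 137 reads in total. Without dyW1, the library with the least myofiber RNA, the dyW mean was 2.14-fold higher. On the log2 scale *Mcl1* differed by 1.79 (SE 0.656, limma adjusted P = 0.0669), so *Mcl1* did not pass the threshold. The exact two-sided permutation test gave P = 0.0571, the smallest that 35 splits of 7 libraries allow when the smaller tail is doubled. Counting instead the splits with at least as large an absolute difference gave 0.0286 in an exact permutation test, a definition that was set aside after these values had been seen. *Mcl1* was positive in each of the 18 alternative fits, from 1.17 without dyW1 (limma adjusted P = 0.185) to 3.19 with voom (limma adjusted P = 0.0575). It lies on chromosome 3 of GRCm39 from 95566026 to 95570487, where no other annotated gene overlaps it.

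*Bcl2*, the founding anti-apoptotic gene, did not differ beyond the spread between libraries. Its normalized count was 74.6, 64.7, 28.7 and 69.2 in WT1 to WT4. It was 85.9 in dyW1, 47.7 in dyW2 and 21.5 in the library labelled dyW3. The highest and the lowest of the 7 values were both in dyW, and the log2 fold change was −0.31 (SE 0.704, limma adjusted P = 0.758). *Bcl2* turned positive with 1 common total for the libraries, with voom and without the library labelled dyW3. *Bcl2l1*, whose long isoform BCL-XL is anti-apoptotic and whose short isoform is pro-apoptotic, had the smallest SD in WT of the 9 genes on the log2 scale (0.26), with 21.3, 32.4, 24.6 and 22.0 in WT1 to WT4. Its normalized count was 18.1 in dyW1, 10.1 in dyW2 and 55.7 in the library labelled dyW3. Counts per gene do not separate the isoforms. WT thus lay inside the dyW range, and the log2 fold change was −0.17 (SE 0.740, limma adjusted P = 0.881).

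Within a library, the share of each gene among the 3 anti-apoptotic genes does not depend on the size factor. Per kb of exon, *Mcl1* made up 77.7%, 54.9%, 80.6% and 71.0% of the 3 in WT1 to WT4. It made up 94.8% in dyW1, 90.0% in dyW2 and 83.1% in the library labelled dyW3. The lowest dyW share was above the highest WT share, by 83.1% against 80.6%. In WT, however, the other genes lay near the median of odorant and vomeronasal receptor genes at equal exon length. *Bcl2l1* was at 0.733 to 1.32 times that level and *Bcl2* at 0.861 to 2.37 times. With that level taken off, WT2 held 33.2 normalized counts of *Mcl1*, 2.95 of *Bcl2* and 0 of *Bcl2l1*. The library labelled dyW3 held 224, 16.6 and 52.9, so the separation of the shares was lost. The log2 ratio of *Mcl1* to *Bcl2l1* per kb ranged from 1.35 to 3.31 in WT. It was 5.97 in dyW1, 4.90 in dyW2 and 2.56 in the library labelled dyW3, which lay inside the WT range. The mean difference was 1.96, and 1.21 without dyW1. These shares and ratios are descriptions without a test.

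**Figure D2:**
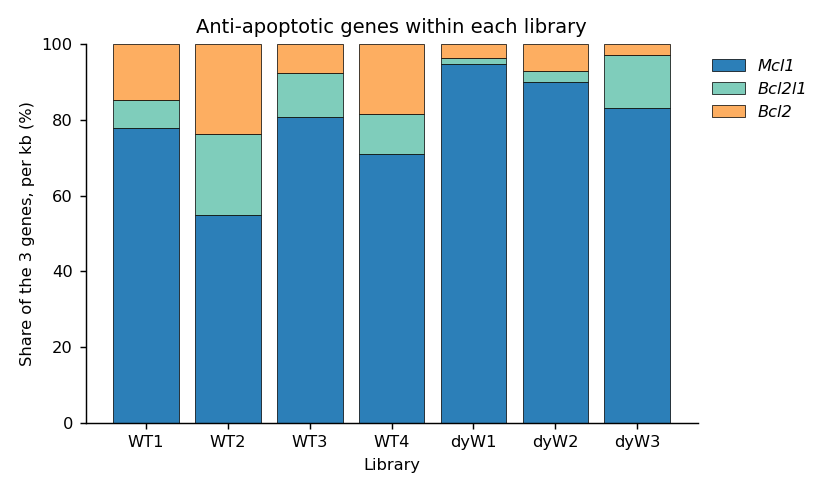
Share (%) of *Mcl1*, *Bcl2l1* and *Bcl2* in the sum of the 3 genes per kb of exon, as stacked bars for each of the 7 libraries. *Mcl1* takes 54.9% to 80.6% in the WT libraries and 83.1% to 94.8% in the dyW libraries. The separation was lost with the median of odorant and vomeronasal receptor genes at equal exon length taken off.

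*Bax* and *Bak1* encode the effectors that form the mitochondrial pore. WT1 to WT4 held 0, 24.3, 109 and 44.1 normalized counts of *Bax*. The gene was at 16.8 in dyW1, 65.9 in dyW2 and 7.33 in the library labelled dyW3. Both groups spanned a wide range, and the 0 reads in WT1 allow up to 3 reads, worth 15.99 normalized counts in that library. For *Bax* the log2 fold change was 0.19 (SE 1.55, limma adjusted P = 0.936), and without WT1 it was −1.22 (limma adjusted P = 0.416). *Bak1* had 0, 3, 0 and 1 reads in WT1 to WT4. It had 7 reads in dyW1, 41 in dyW2 and 1 in the library labelled dyW3. The mean of *Bak1* was 2.81 ± 3.82 normalized counts (SD, n = 4) for WT against 2.12 ± 2.66 (SD, n = 3) for dyW. In the fit without a filter its log2 fold change was 0.009 (SE 1.01, limma adjusted P = 0.996). With 4 reads in WT in total, this shows neither a change in *Bak1* nor its absence. Other annotated genes share 25.5% of the exon bases of *Bak1* and 13.6% of those of *Bax*, so the counts of both are uncertain where strand was not used. The log2 ratio of *Bax* to *Bcl2* per kb ranged from −3.93 to 4.20 in WT and from 0.02 to 2.77 in dyW, but the lowest WT value is that of WT1, where *Bax* had 0 reads and the added count of 1 sets the ratio. Without WT1 the WT range was 0.93 to 4.20, 2 of the 3 dyW libraries lay below it, and the mean difference (dyW minus WT) turned from 0.51 to −1.04. It was −0.27 without dyW2, but 0.82 without WT4, 1.11 without dyW1 and 1.66 without WT3. The log2 ratio of both effectors to the 3 anti-apoptotic genes ranged from −5.86 to 0.52 in WT and from −4.59 to −0.90 in dyW, where the lowest WT value again comes from WT1, with 0 reads of both effectors. Without WT1 the WT range was −0.79 to 0.52, all 3 dyW libraries lay below it, and the mean difference moved from −1.44 to −2.83. It was −2.57 without dyW2, −0.70 without WT3 and −0.72 without dyW1.

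The BH3-only genes *Bcl2l11* and *Bbc3*, the latter a p53 target, shared a pattern within dyW. *Bcl2l11* was at 48.0, 32.4, 28.7 and 25.2 normalized counts in WT1 to WT4. It was at 162 in dyW1 and 143 in the library labelled dyW3, both above every WT library, and at 0.759 in dyW2, below every WT library. For *Bcl2l11* the log2 fold change was 0.04 (SE 1.48, limma adjusted P = 0.986), and its direction turned with the library left out, from 2.19 without dyW2 (limma adjusted P = 0.0361) to −1.08 without dyW1 and −0.99 without the library labelled dyW3. *Bbc3* was at 26.7, 10.8, 4.10 and 6.29 normalized counts in WT1 to WT4. It was at 43.8 in dyW1 and 44.9 in the library labelled dyW3, and had 0 reads in dyW2, which allows up to 0.379 normalized counts there. That of *Bbc3* was 0.28 (SE 1.40, limma adjusted P = 0.895), and it turned likewise, from 2.11 without dyW2 (limma adjusted P = 0.117) to −0.63 without dyW1 and −0.65 without the library labelled dyW3. The SD of log2(normalized count + 1) was 0.39 in WT and 3.72 in dyW for *Bcl2l11*, and 1.06 and 3.18 for *Bbc3*. A larger SD in dyW was found for 6 of the 9 genes and for 63.5% of all tested genes. Among all tested genes, 12.9% had 0 reads in dyW2 and at least 10 in dyW1, as did 3 of the 8 tested members, *Bbc3*, *Bid* and *Casp9*.

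*Bid* encodes the BH3-only protein that caspase-8 cleaves, linking death receptors to mitochondria. WT1 to WT4 held 37.3, 32.4, 2.05 and 25.2 normalized counts of *Bid*. The gene was at 2.24 in dyW1 and 0 in dyW2 and in the library labelled dyW3. Only WT3, with 1 read, fell as low as dyW1, so the groups overlapped by that library. The WT mean was 24.2 ± 15.6 (SD, n = 4) and the dyW mean 0.747 ± 1.29 (SD, n = 3). *Bid* had a log2 fold change of −3.59 (SE 1.05, limma adjusted P = 0.0288), and the exact two-sided permutation test gave P = 0.114. Without WT3 the limma adjusted P was 0.00485, which passes the threshold for a call. *Bid* was above an adjusted P of 0.05 in limma without WT1 (0.0671), WT2 (0.0897), WT4 (0.0880) or dyW2 (0.0823), with a pseudocount of 10 (0.0552), with 1 common total (0.103) and after quantile normalization (log2 fold change −0.84, adjusted P = 0.736). Its log2 fold change stayed between −4.44 and −3.23 in the fits that leave out 1 library, and was −2.93 with 1 common total. In the annotation, 34.5% of the exon bases of *Bid* are shared with other genes, among them *Bcl2l13* on the opposite strand, and the strand setting of the counting is not given in the sources used here, so its counts are uncertain.

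*Casp9* was the only one of the 9 genes called. WT1 to WT4 held 21.3, 35.1, 10.3 and 31.5 normalized counts of *Casp9*. The gene was at 1.95 in dyW1, 0 in dyW2 and 0.488 in the library labelled dyW3. All 3 dyW libraries were below every WT library, as for 31.5% of all tested genes. The WT mean was 24.5 ± 11.1 (SD, n = 4) and the dyW mean, 30.2-fold lower, was 0.812 ± 1.014 (SD, n = 3). These means rest on 32 reads in WT and 21 in dyW, 20 of them in dyW1. The WT values of *Casp9* were also below the median of odorant and vomeronasal receptor genes at equal exon length (0.345 to 0.759 times). Subtracting that level therefore left 0 in all 4 WT libraries, so the call cannot be examined in that way. Without dyW1 a single dyW read remained, the dyW mean was 0.244, and the ratio of WT to dyW was 100.4, with an exact Poisson 95% interval for that read of 18.0 to 3967. *Casp9* had a log2 fold change of −3.83 (SE 0.771, limma adjusted P = 0.00584), and the exact two-sided permutation test gave P = 0.0571. The call was lost with voom (limma adjusted P = 0.0761), with 1 common total (0.0472), after quantile normalization (log2 fold change −0.85, adjusted P = 0.701), and with pseudocounts of 0.1 (0.0109) and 10 (log2 fold change −1.61, adjusted P = 0.0367). It was kept with TMM scaling, without a filter on low genes and without WT3 or the library labelled dyW3. Without WT1 or dyW1 the limma adjusted P rose to 0.0143 and 0.0101. Without WT2, WT4 or dyW2 it was 0.0248 to 0.0256, but there 0 of all tested genes were called lower by limma, the lowest adjusted P over all genes being 0.0121 to 0.0141. The log2 fold change of *Casp9* stayed between −4.25 and −3.47 in the 7 fits that leave out 1 library.

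Neither *Apaf1* nor *Cycs*, whose products act with caspase-9, passed the limma threshold. *Apaf1*, the scaffold of the apoptosome, was at 47.2 to 144.7 normalized counts in WT and at 166, 45.9 and 196 in dyW1, dyW2 and the library labelled dyW3 (log2 fold change 0.35, limma adjusted P = 0.732). *Cycs*, which encodes cytochrome c, was at 58.6, 91.7, 525 and 78.7 in WT1 to WT4 and at 59.4, 379 and 159 in the dyW libraries (log2 fold change 0.32, limma adjusted P = 0.813). Differences between these genes and *Casp9* were not tested.

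The WT levels were set against those of gene families used mainly in the nose. Per kb of exon, the median of 1269 odorant and vomeronasal receptor genes was 0.641 to 2.49 reads in the WT libraries, 0 in dyW1 and dyW2, and 1.09 in the library labelled dyW3. This median is termed the receptor level. *Mcl1* was at 2.42 to 12.5 times the receptor level in WT, and was over 2 times that level in all 4 WT libraries. *Bax* ranged from 0 to 16.2 times and *Bcl2* from 0.861 to 2.37 times. *Casp9* was at 0.345 to 0.759 times the receptor level in WT, below it in every WT library. *Bid* was at 0.0579 to 1.11 times, and *Bak1* at 0 to 0.501 times. *Bcl2l1* was at 0.733 to 1.32, *Bcl2l11* at 0.426 to 1.39 and *Bbc3* at 0.225 to 1.63 times. In the library labelled dyW3, by contrast, *Mcl1* was at 121, *Bcl2l11* at 26.4, *Bcl2l1* at 20.3 and *Bbc3* at 17.6 times, whereas *Casp9* was at 0.111 times. With the receptor level taken off the reads of each gene, an alternative chosen after seeing the data, *Casp9* was at 0 in all 4 WT libraries, in dyW2 and in the library labelled dyW3, so a comparison of *Casp9* has no meaning there. *Bid* was at 0 in 3 of 4 WT libraries and 2 of 3 dyW libraries. *Mcl1* stayed above 0 in all 7 libraries, with a log2 fold change of 2.13 (limma adjusted P = 0.208).

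**Figure D3:**
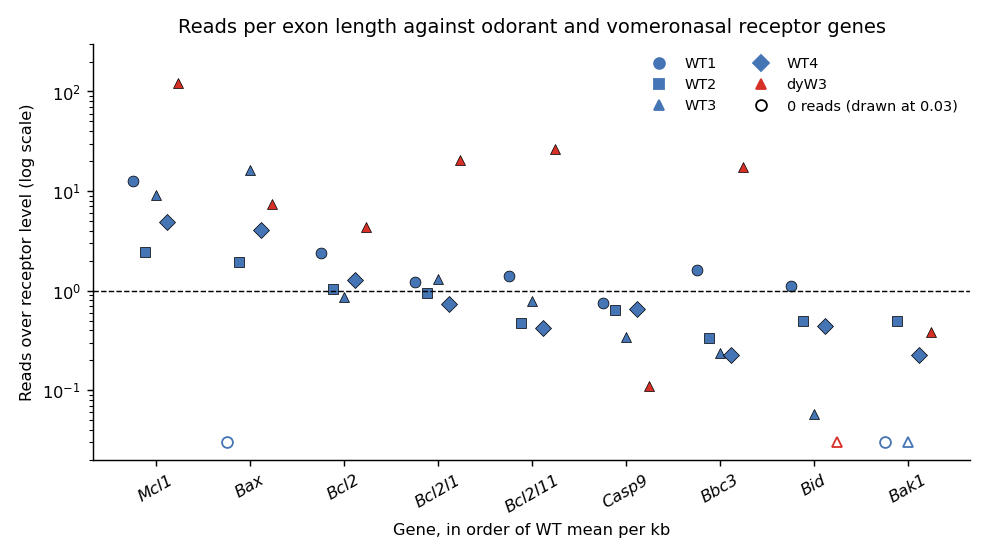
Reads per kb of exon of each gene divided by the receptor level of the same library (log axis, dashed line at 1) in 4 WT libraries (blue) and the library labelled dyW3 (red). Open symbols stand for 0 reads, and dyW1 and dyW2 are left out because their receptor level is 0. *Casp9* lies below the line in all 5 libraries and *Mcl1* above it in all 5.

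Per kb of exon, the order of the mean normalized counts in WT was *Mcl1* (30.2), *Bax* (23.8), *Bcl2* (6.44), *Bcl2l1* (4.88), *Bcl2l11* (3.32), *Casp9* (2.98), *Bbc3* (2.50), *Bid* (2.47) and *Bak1* (1.17). Each neighbouring pair in this order overlapped over the libraries. Leaving out 1 library kept *Bcl2* and *Bcl2l1* in places 3 and 4 but exchanged places among the others, and moved the mean of *Bax* to 12.3 without WT3, that of *Bak1* to 0.436 without WT2 and that of *Bbc3* to 1.47 without WT1. In dyW the order was *Mcl1* (121), *Bax* (16.2), *Bcl2l11* (10.1), *Bbc3* (6.17), *Bcl2* (5.61), *Bcl2l1* (5.45), *Bak1* (0.880), *Casp9* (0.0988) and *Bid* (0.0763). There, *Mcl1* and *Bax* were the only neighbours whose ranges did not overlap. The dyW order also depends on single libraries. *Bax* was at 9.03, 35.5 and 3.95 per kb in dyW1, dyW2 and the library labelled dyW3. *Bcl2l11* was at 16.1, 0.0750 and 14.1, above *Bax* in dyW1 and the library labelled dyW3.

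**Figure D4:**
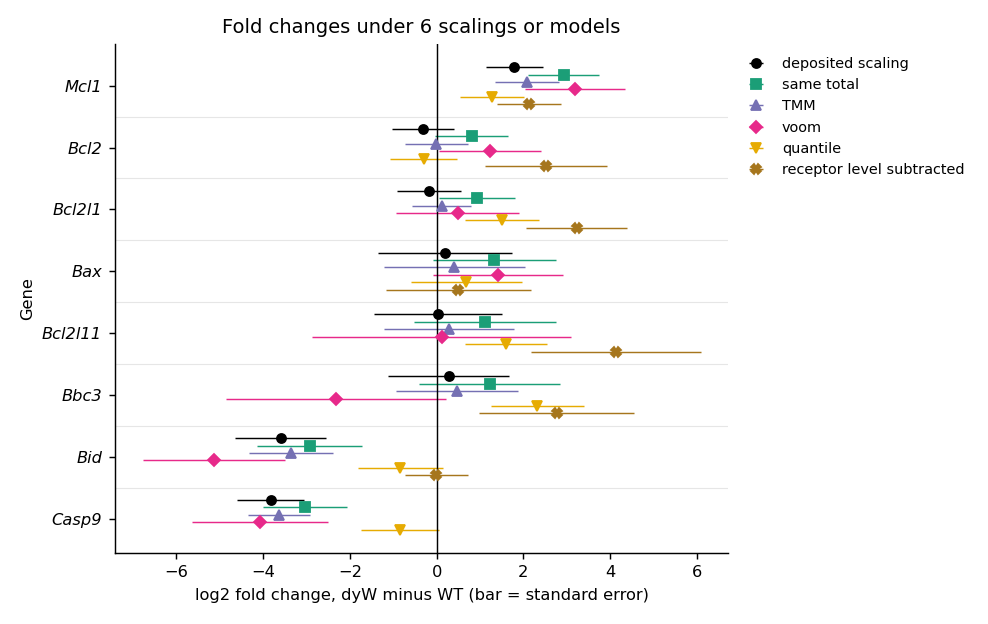
Log2 fold change (dyW minus WT, with its standard error) of the 8 tested genes under the deposited scaling, 3 other scalings (same total, TMM, quantile), voom and subtraction of the receptor level. *Mcl1* lies above 0 under all 6, whereas *Casp9* moves from −3.83 to −0.85 with quantile normalization. No subtracted value is drawn for *Casp9*, which is then at 0 in all 4 WT libraries.

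The wider pathway was described with 8 lists of apoptosis genes, which hold 65 genes, of which 60 were in the table and 58 were tested. At an adjusted P-value under 0.05, 7 of the 58 (12.1%) were lower in dyW and 0 were higher, beside 29.6% and 1.004% of all tested genes. *Casp9*, *Hrk* and *Tnfsf10* were called lower at the stricter threshold, 3 of the 58 beside 18.7% of all tested genes. The median log2 fold change over the 58 was −0.51. It turned to 0.48 with 1 common total, 0.47 with voom and 0.53 after quantile normalization, and was −0.24 with TMM scaling. In the anti-apoptotic list 0 of 4 tested genes passed the 0.05 threshold, as did 0 of 2 effector genes and 0 of 10 genes of the p53 axis. Among the BH3-only genes 2 of 8 were lower, *Bid* and *Hrk*. *Hrk*, a BH3-only gene best known from neurons, had a WT mean of 12.4 ± 6.80 normalized counts (SD, n = 4) from 18 reads and only 1 read in dyW (limma adjusted P = 0.00494), too few for a fold. Of the 9 genes for the apoptosome and mitochondrial release and of the 10 caspases, 1 each was lower, *Casp9* in both. In the death receptor list 2 of 9 were lower. These were *Tnfsf10*, which encodes the ligand TRAIL (−3.33, limma adjusted P = 0.00699), and its receptor gene *Tnfrsf10b* (−4.52, limma adjusted P = 0.0285). The WT mean of *Tnfsf10* rests on 18 reads. *Tnfrsf10b* was at 48.2 normalized counts in dyW1, close to the 49.2 of WT3, and had 1 read each in dyW2 and the library labelled dyW3. Of the 7 inhibitors of apoptosis, *Naip1* (−3.74, limma adjusted P = 0.0260) and *Naip2* (−3.72, limma adjusted P = 0.0334) were lower, but these are near-identical copies and their counts are uncertain.

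**Figure D5:**
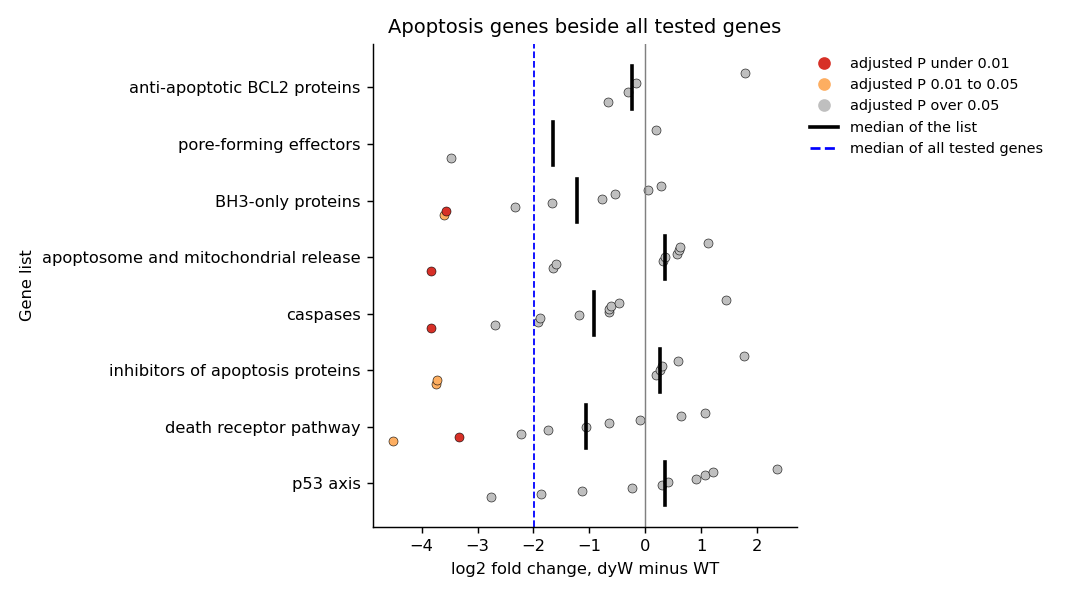
Log2 fold change (dyW minus WT) of each tested gene in 8 apoptosis lists, colored by limma adjusted P-value, with the list median (black bar), 0 (gray line) and the median of all tested genes (dashed line, −1.99). Each list median lies to the right of the dashed line under the deposited scaling, and 7 genes have an adjusted P-value under 0.05.

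The genes most like a member across the 7 libraries were sought among 6110 genes with a mean of at least 50 normalized counts, for the 3 members that reach this level. For *Mcl1* they were *Fam91a1* (Pearson r = 0.990), *Ski* (0.984) and *Dnm3os* (0.983), all highest in dyW1. For *Bcl2* they were *Samhd1* (0.979), *Dync1h1* (0.977) and *Eif2ak4* (0.960). For *Bcl2l11* they were *Lepr* (0.990), *Pygo2* (0.987) and *4932438A13Rik* (0.982), all lowest in dyW2. The points share the same 7 libraries and size factors, and these values are descriptions over genes picked for their likeness.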

How the data were processed

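RNAseq of isolated muscle fibers was available for 4 WT and 3 dyW fetuses at E17.5, grouped by the genotype in the labels. Upstream, the authors used Cutadapt for trimming, RNA STAR for alignment to GRCm39, FeatureCounts on uniquely mapping reads, and DESeq2. Versions, strand setting and annotation release are not given in the sources used here. The authors deposited normalized counts, which are counts divided by 1 size factor per library, and a table of their own fold changes and P-values, which was not used. All values were whole multiples of 1 read (tolerance 0.1 read), which gave 470804 to 18297106 reads on genes. Of 31531 genes, 99.2% had an identifier in GENCODE mouse release 39, which gave coordinates and exon lengths.

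The limma package (3.58.1, R 4.3.3; lmFit and trended eBayes, Benjamini-Hochberg) was run on log2(normalized count + 1) for genes with a mean of 5 or more. For single genes, exact two-sided permutation tests used all 35 splits (scipy 1.17.1, doubling the smaller tail). An earlier version of this computation counted splits by absolute difference, and it was replaced after its P-values had been seen, to follow the plan, under which this test cannot pass 0.05. Both are given where they differ in call. Tables and figures were made with Python 3.11.15, numpy 2.4.6, pandas 2.3.3 and matplotlib 3.10.9. The fit was tested on simulated data for dyW against WT with 24440 genes. Of the 180 genes given a 16-fold change, 115 were recovered with the right sign, and 0 others were called. The simulation used the same spread setting for every gene and library and no shift common to the genes. The median log2 fold change of the real data was −1.99, so the simulation does not measure false calls there.

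The members, gene lists and tests were chosen with earlier results of these data known. Genes named are the members, *Lama2*, pathway genes with adjusted P-values under 0.05, *Apaf1*, *Cycs*, and the 3 genes most correlated with each member at a mean of at least 50; 1 gene that this rule names is not reported here. Alternatives covered the pseudocount (0.1, 10), the filter (none, or 50), other scalings, voom, a replicate block, each library left out and other thresholds.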

Additional observations from a re-analysis of the deposited data

Results flagged for a closer look

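*Cycs*, the cytochrome c gene, had a normalized count of 525 in WT3, far from the 58.6 to 91.7 of the other 3 WT libraries relative to the range of the group. WT3 also held the largest sum of myofiber markers, 84866 normalized counts, and the part of this in the *Cycs* value was not tested. It was the only one of 21 gene and group checks of 4 libraries to stand out, and chance sets apart about 1 in 20 such groups.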

How the results depend on the processing

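The call of *Casp9* depended on the processing, but several alternatives left no gene to call. Instead of 1, 0 of the 9 genes were called lower with pseudocounts of 0.1 and 10, a mean of at least 50 (which leaves *Casp9* untested), quantile normalization, the same total, voom, the replicate block, without WT1 and dyW1 together, or with the receptor level subtracted. Over all genes, limma called 0 lower with a pseudocount of 10, a mean of at least 50, the same total, without WT1 and dyW1, with the receptor level subtracted, and without WT2, WT4 or dyW2, whereas it called 5169 with a pseudocount of 0.1, 5325 with voom, 2 after quantile normalization and 1 with the block, against 4830 in the report. Of the 9 genes, 2 were lower at an adjusted P-value under 0.05, and 0 to 2 were called with each library left out. The log2 fold change of *Casp9* was −5.49 and −1.61 with pseudocounts of 0.1 and 10, −0.85 after quantile normalization, −3.04 with the same total, −4.08 with voom, −3.67 with the replicate block, −4.28 without WT1 and dyW1, 0.52 with the receptor level subtracted (void, as every WT value is then 0), and −4.25 to −3.47 with each library left out (limma adjusted P from 0.00489 to 0.701 over all fits). *Bid* had an adjusted P of 0.0889 in limma with the replicate block. Genes of the apoptosis lists called lower, 3 in the report, were 0 with a pseudocount of 10, a mean of at least 50, quantile normalization, the same total, the replicate block, without WT1 and dyW1, and with the receptor level subtracted. They were 1 with voom, 7 at an adjusted P-value under 0.05, and 0 to 7 with each library left out. *Mcl1* did not change direction in any of its 18 alternatives (limma adjusted P from 0.0268 to 0.429), and its exact permutation P was 0.0286 when splits were counted by absolute difference.

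Genes far from the threshold changed sign. *Bax* was −0.23 with a pseudocount of 10, −1.08 without WT1 and dyW1, and −1.22 (without WT1) to 1.04 with each library left out, among them −0.63 without dyW2. *Bcl2* was 0.81 with the same total, 1.24 with voom, 2.53 with the receptor level subtracted and −0.78 to 0.20 with each library left out, the highest without the library labelled dyW3. *Bcl2l1* was 1.51 with quantile normalization, 0.93 with the same total, 0.12 with TMM, 0.49 with voom, 3.23 with the receptor level subtracted and −0.82 to 0.35 with each library left out, the highest without dyW2. *Bcl2l11* was −0.27 with a pseudocount of 0.1, −0.078 with the replicate block, −0.90 without WT1 and dyW1, and −1.08 to 2.19 with each library left out, among them −0.02 without WT3, −0.078 without WT4 and −0.99 without the library labelled dyW3. *Bbc3* was −0.69 with a pseudocount of 0.1, −2.32 with voom, −0.16 without WT1 and dyW1, and −0.65 to 2.11 with each library left out, among them −0.07 without WT3 and −0.63 without dyW1. The cause was not tested.

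The labels do not say whether replicate numbers pair the samples. The deviations of same-numbered libraries correlated at 0.147, −0.049 and −0.088, which cannot decide this with so few pairs, and WT4 had no partner in the block. With the block, the limma adjusted P of *Casp9* was 0.0717. The planned edgeR and DESeq2 fits were not run. Depth limits the WT values, as 1 read in WT1 is worth 5.33 normalized counts.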
